A study of Mus musculus with 6 samples.

Results

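The genes described here belong to the Notch pathway: the receptors Notch1, Notch2 and Notch4, the ligands Jag1, Dll1 and Dll4, the fringe enzyme Lfng, the DNA-binding factor Rbpj and the target genes Hes1 and Nrarp. They were chosen by name, 10 genes beside a table of 23930 genes. Of the 10, 9 had a row in the table, and Rbpj was not analysed here. Their transcripts were measured in CD31-positive cells sorted by flow cytometry from subcutaneous Lewis lung carcinoma (LLC) tumours of C57/Bl6 mice, 2 weeks after the LLC cells, a mouse lung cancer line, were injected. The injected cells overexpressed BMP9 in 1 group (BMP9 overexpression, replicates 4, 5 and 6), and were controls in the other (Control, replicates 1, 2 and 3). BMP9 is a circulating ligand that signals in endothelium through the receptor ALK1, and the overexpressing cells were the tumour cells, not the sorted population. The title of the series names the normalization of tumour vessels as its subject. The labels do not say how BMP9 was driven, whether the tumour line was 1 clone, or whether each library came from its own animal. The p-values therefore cover the spread between these libraries, part or all of which may be technical.

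Notch is a receptor that acts as its own messenger. A Delta or Jagged ligand on a neighbouring cell pulls on the receptor, ADAM proteases and then gamma-secretase cut it, and the freed intracellular part joins Rbpj and Mastermind proteins in the nucleus to switch on targets such as the Hes and Hey repressors and Nrarp, a feedback inhibitor. Fringe enzymes add sugars to the receptor that favour Delta over Jagged ligands. In growing vessels Dll4 on the leading tip cell restrains sprouting of its neighbours, and Jag1 opposes it. Notch also guides lymphocyte differentiation, and Notch2 and Jag1 are expressed in many myeloid cells.

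The promoters of the members are shown for 3 of those that differed between the groups, because Lfng and Nrarp were lower and Notch2 higher with BMP9 overexpression and all 3 genes belong to the same pathway. The sequences are the 250 bases before the RefSeq start of each gene, in gene orientation, on GRCm38.p6 (mm10). Capitals mark the Rbpj core TGGGAA on either strand and the palindrome CACGTG, a site class that Hes and Hey proteins can bind. In Lfng the palindrome overlaps the Rbpj core, and that stretch also holds the longer Rbpj letters GTGGGAA. Lfng lies at chr5:140607091-140607340 on the plus strand, Nrarp at chr2:25180508-25180757 on the plus strand and Notch2 at chr3:98013288-98013537 on the plus strand.
Lfng: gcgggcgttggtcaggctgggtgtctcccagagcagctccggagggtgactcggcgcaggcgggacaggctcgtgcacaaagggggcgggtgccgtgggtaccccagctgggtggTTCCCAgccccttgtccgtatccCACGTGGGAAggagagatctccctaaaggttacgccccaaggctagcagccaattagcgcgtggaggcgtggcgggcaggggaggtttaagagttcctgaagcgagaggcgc
Nrarp: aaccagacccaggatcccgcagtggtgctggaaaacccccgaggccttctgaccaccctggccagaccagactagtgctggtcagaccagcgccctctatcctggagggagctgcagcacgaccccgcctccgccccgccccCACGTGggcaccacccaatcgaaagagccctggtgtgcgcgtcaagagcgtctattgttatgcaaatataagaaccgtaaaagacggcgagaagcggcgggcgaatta
Notch2: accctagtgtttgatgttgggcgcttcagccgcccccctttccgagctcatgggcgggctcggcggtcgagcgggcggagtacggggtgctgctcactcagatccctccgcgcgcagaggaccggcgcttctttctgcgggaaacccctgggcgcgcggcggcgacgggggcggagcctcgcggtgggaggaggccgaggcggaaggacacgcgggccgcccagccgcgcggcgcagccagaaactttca

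In Lfng the Rbpj core stands 108 bases before the start on the gene's strand and 135 bases before it on the other strand, counted from the first base of the match. The palindrome begins 112 bases before the start in Lfng and 108 bases before it in Nrarp, and Notch2 holds none of these letters in the window. Of the 32851 mouse promoters in the same table, 21.6% hold TGGGAA within this window on either strand, 5.42% hold GTGGGAA and 6.02% hold CACGTG. The GC-rich letters GGCGCC, to which BMP-activated SMAD proteins can bind, occur in 9.59% of promoters, and among the members they occur in 1 of the Dll1 promoters, 169 bases before the start. The RefSeq table holds 11 promoters of 9 of the members, among them Rbpj but not Hes1. Over all of these, TGGGAA occurs in the promoters of Lfng and Rbpj alone, and CACGTG in those of Lfng and Nrarp alone. Whether these letters bear on the direction of a change was not tested. A match is a description of the letters and not a site, and the window is short.

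The deposited values were RPM, the reads of a gene scaled to a fixed library total, and the panel amplified a short stretch per gene. Libraries held 1974510 to 28380957 reads with BMP9 overexpression and 1321762 to 4583428 reads in Control. Of 9460 genes tested with limma, 3330 (35.2%) passed an adjusted p of 0.05 (called), with 1200 (12.7%) higher and 2130 (22.5%) lower in BMP9 overexpression libraries. The tested genes had a median log2 fold change of -0.24 as deposited and of -0.02 with TMM scaling, which sets library factors so that most genes stay level, under which 1580 genes were called higher and 1429 lower, so that 52.5% of calls were higher in place of 36%. The sample descriptions carry run time stamps, an earlier one for the Control libraries and BMP9 replicate 4 and a later one for BMP9 replicates 5 and 6. Values given within the earlier stamp compare BMP9 replicate 4 alone with the 3 Control libraries, and that replicate is then assumed to vary like them. With the stamp as a covariate the fold changes are the same, because the later libraries are all of BMP9 overexpression. The stamp settings are therefore not separate checks of a fold change.

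Marker levels of several cell types differed between the groups. Pecam1, the gene of the sort marker CD31, was at 247, 353 and 311 RPM with BMP9 overexpression and at 363, 448 and 532 RPM in Control, and was not called (limma adjusted p = 0.12). Its level in every BMP9 library was below that in every Control library. The 21 other pan-endothelial markers summed to 118 to 136 RPM with BMP9 overexpression and to 75.9 to 141 RPM in Control, ranges that overlapped. Of 5 tested members, Flt1 was called higher and Kdr lower, but Kdr reached 5 RPM in Control libraries only and Flt1 in all BMP9 libraries but 1 Control library, so each passed the filter through the group in which it was the higher. Eng, which macrophages also express, gave 37.1% to 68.1% of that sum. It was at 75.5, 67.4 and 92.4 RPM with BMP9 overexpression and at 44.9, 52.2 and 47.5 RPM in Control, without overlap, and was not called. Kdr and, below the filter, Esam, Robo4, Egfl7 and Ptprb were lower in every BMP9 library than in any Control library. Overlapping sums therefore do not show a level endothelial signal, and values scaled to this sum lean on Eng. Between 0 and 10 of the 21 markers had no read in a BMP9 library and between 2 and 5 in a Control library. None of the 21 was at 0 in all 6. Apart from Pecam1 and Eng, no pan-endothelial marker exceeded 31.5 RPM in any library. The 15 macrophage markers summed to 19461 to 26296 RPM with BMP9 overexpression and to 5033 to 7712 RPM in Control, and 12 of 13 tested members rose. Lyz2 alone gave 39.1% to 69.6% of that sum. The 13 T and NK cell markers summed to 659 to 1152 RPM with BMP9 overexpression and to 5401 to 5735 RPM in Control, and all 13 fell. Neutrophil markers summed to 216 to 303 RPM with BMP9 overexpression and to 24.7 to 44 RPM in Control. Platelet markers summed to 583 to 807 RPM with BMP9 overexpression and to 36.3 to 72 RPM in Control. Pf4, which some macrophages also express, gave 83.3% to 91.7% of that sum, and Gp6 was at 0 in every library. Most tested members of these last 2 lists passed the filter through the BMP9 libraries, so their calls are not counted. Arterial and tip cell markers summed to 452 to 689 RPM with BMP9 overexpression and to 236 to 349 RPM in Control, of which Cxcr4, also a leukocyte gene and the 1 tested member that rose, gave 93.6% to 97.1%. Epithelial markers, for tumour cells, summed to 185 to 284 RPM with BMP9 overexpression and to 169 to 192 RPM in Control, which overlapped, and Cdh1 gave 92.4% to 96.9% of that sum. Krt18 was higher and Epcam lower in every BMP9 library than in any Control library, and each reached 5 RPM in 1 group only. Krt8, below the filter, was higher in every BMP9 library too, at 2.03, 1.13 and 3.38 RPM against 0.436, 0 and 0 RPM in Control. Mural cell markers summed to 11.1 to 21.3 RPM with BMP9 overexpression and to 19.7 to 41.5 RPM in Control, and the 2 tested members, Cspg4 and Kcnj8, passed the filter through Control libraries alone. B cell markers summed to 43.9 to 68.4 RPM with BMP9 overexpression and to 42.4 to 65.5 RPM in Control, and these ranges overlapped. Dendritic cell markers summed to 359 to 603 RPM with BMP9 overexpression and to 385 to 542 RPM in Control, and overlapped too, but Itgax, which macrophages also express, gave 77.9% to 90.1% of that sum. Of the 7 tested dendritic cell markers 1 was called, Xcr1, which was lower (log2 fold change -1.42, limma adjusted p = 0.0083). That is 14.3% beside 35.2% of all tested genes, and the other markers of this list were not called. Proliferation markers fell in 7 of 7 tested members, and immediate-early and heat shock genes rose in 6 of 11. Beside these list counts, 12.7% of all tested genes were called higher and 22.5% lower. In such bulk samples, fewer cells of a type and less RNA per cell cannot be told apart.

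**Figure D1:**
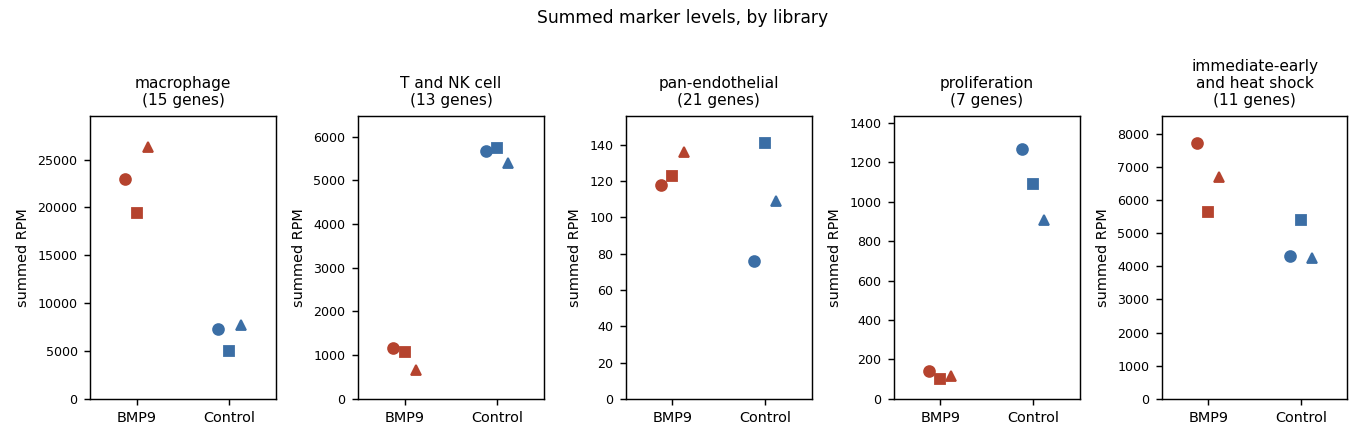
Summed RPM of marker lists in each library (vertical axes, from 0), with the 3 BMP9 overexpression libraries on the left and the 3 Control libraries on the right of each panel. Macrophage sums lie higher and T and NK cell and proliferation sums lower in all BMP9 libraries, whereas the pan-endothelial sums of the groups overlap. Eng, higher in all BMP9 libraries, gave 37.1% to 68.1% of the pan-endothelial sum.

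Of the 9 members with a row, 6 passed the filter of at least 5 RPM in at least 3 libraries. Among these 6, 3 rose (Notch2, Jag1 and Hes1), 2 fell (Lfng and Nrarp) and 1 was not called (Notch1), beside 35.2% of all tested genes called. Each of the 6 reached 5 RPM in at least 2 libraries of each group, and Hes1, with 2 such Control libraries, passed because of its BMP9 libraries. The members called were those in which the groups did not overlap, as was the case for 48.1% of all tested genes (16.8% with BMP9 overexpression above Control and 31.2% below). The median log2 fold change of the 6 was 0.62, against -0.24 over all tested genes. Notch4, Dll1 and Dll4 were below the filter and are given with their reads.

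**Figure D2:**
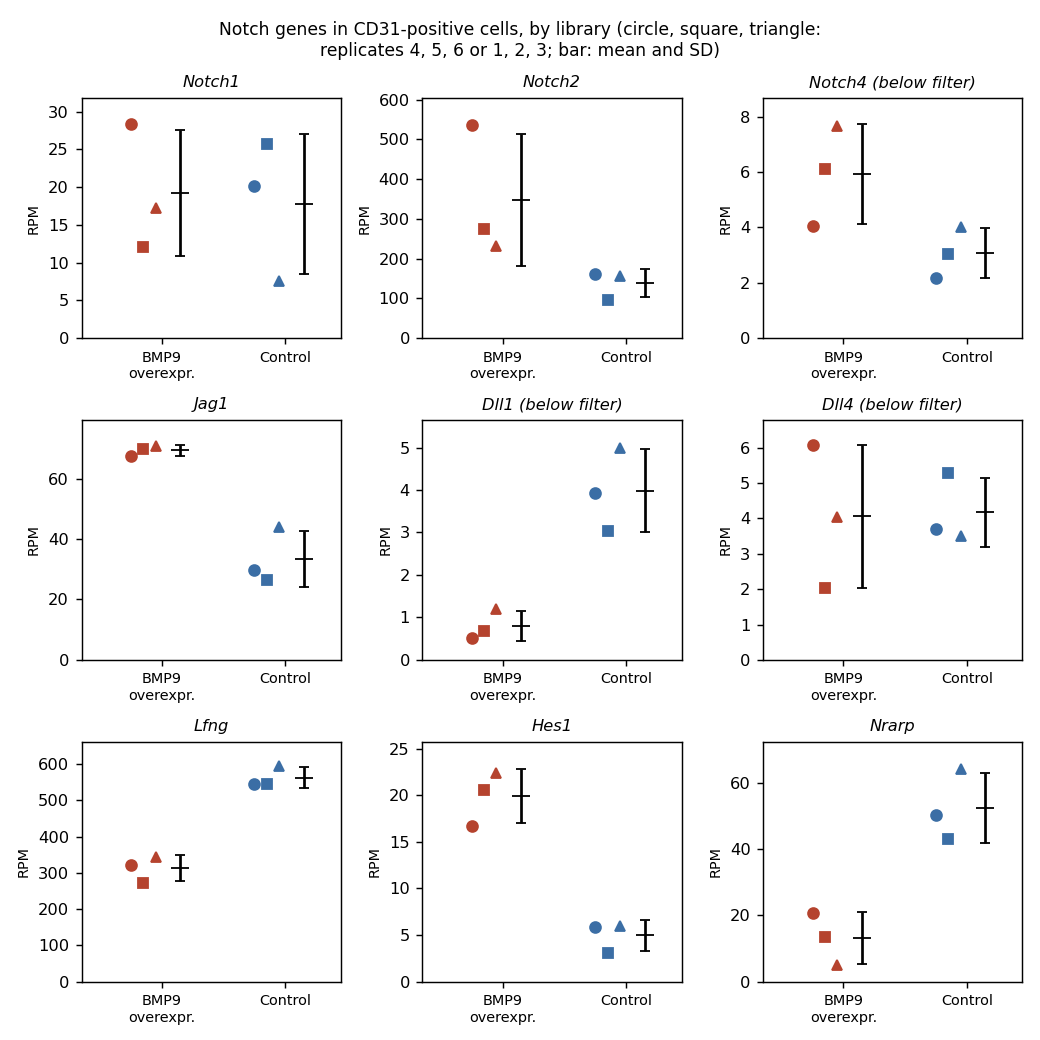
RPM of the 9 measured Notch genes in each library (vertical axes, from 0), BMP9 overexpression in red on the left and Control in blue on the right, with the mean and SD of 3 libraries in black. Hes1, Jag1, Notch2 and Notch4 lie higher and Nrarp, Lfng and Dll1 lower in all BMP9 libraries than in any Control library, while the groups overlap for Notch1 and Dll4.

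Among the receptors, Notch2 rose and Notch1 was not called. Notch2 (ENSMUSG00000027878, chromosome 3, 98013527 to 98150361, plus strand), a receptor widely used in myeloid and B cell differentiation, was at 537, 274 and 232 RPM in BMP9 replicates 4, 5 and 6, against 161, 96.8 and 155 RPM in Control replicates 1, 2 and 3. All BMP9 libraries lay above all Control libraries, and replicate 4 stood well above the other BMP9 libraries. The means were 348 ± 166 RPM with BMP9 overexpression and 137 ± 35.2 RPM in Control (SD, n = 3 each), which gave a log2 fold change of 1.27 (SE 0.33, limma adjusted p = 0.008). Within the earlier stamp it was 2.00, and without BMP9 replicate 4 it was 0.91 (limma adjusted p = 0.02). In the fit without a filter on low values the fold change did not pass (limma adjusted p = 0.074). The macrophage markers rose in the same libraries, and their part in the result was not tested. Per 1000 RPM of the macrophage marker sum of its library, Notch2 was at 23.4, 14.1 and 8.81 RPM with BMP9 overexpression and at 22, 19.2 and 20 RPM in Control, and these ranges overlapped. Scaled to the pan-endothelial marker sum it was at 4554, 2228 and 1708 RPM with BMP9 overexpression and at 2115, 688 and 1424 RPM in Control, which overlapped as well. On the base of the T and NK cell marker sum, which fell, all BMP9 libraries were the higher for Notch2, Notch4, Jag1 and Hes1. The same held for Lfng, which fell in RPM, and for Dll4, whose RPM overlapped between the groups. Notch2 overlaps the annotated genes Gm42819 and Gm42820 on the same strand, which were not measured here under those names.

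Notch1 (ENSMUSG00000026923, chromosome 2, 26457903 to 26516663, minus strand), the receptor of arterial fate and of T cell commitment, was at 28.4, 12 and 17.3 RPM with BMP9 overexpression, against 20.1, 25.7 and 7.5 RPM in Control. The ranges overlapped and each group spread more than 2-fold. The log2 fold change was 0.18 with a 95% interval of -0.75 to 1.12 (SE 0.44, limma adjusted p = 0.77). A rise of up to about 2-fold and a smaller fall, down to -0.75, were therefore not distinguishable from no change. It was 0.80 within the earlier stamp, -0.31 without Control replicate 3 and -0.13 without BMP9 replicate 4, none of them called. Notch1 overlaps an annotated transcript on the opposite strand, 0610009E02Rik, and the sources used here do not say whether reads were assigned by strand.

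Notch4 (ENSMUSG00000015468, chromosome 17, 34564268 to 34588503, plus strand), the receptor most restricted to endothelium, was at 4.05, 6.12 and 7.65 RPM with BMP9 overexpression, from 8, 27 and 217 reads. In Control it was at 2.18, 3.03 and 4 RPM, from 10, 4 and 8 reads. The groups did not overlap, but BMP9 replicate 4 and Control replicate 3 lay next to each other with 8 reads each. Means of log2(RPM + 1) differed by 0.76, for which the exact permutation test (two-sided) gave p = 0.1, its lowest possible value with 3 libraries a group. In the limma fit without a filter its adjusted p was 0.27. Scaled to 1000 RPM of the pan-endothelial marker sum, Notch4 was at 34.3, 49.7 and 56.4 RPM with BMP9 overexpression and at 28.7, 21.5 and 36.9 RPM in Control, ranges that overlapped.

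**Figure D3:**
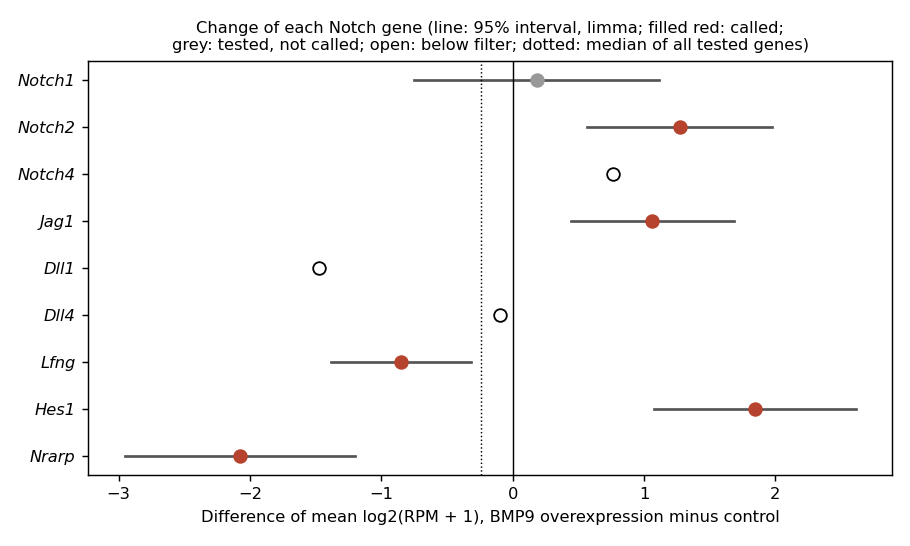
BMP9 overexpression minus Control, as the difference of mean log2(RPM + 1), for the 9 measured Notch genes (horizontal axis), with 95% intervals of the limma fit for the 6 tested genes and open points for the 3 below the filter. Hes1, Notch2 and Jag1 lie to the right of 0, Nrarp and Lfng to the left, and the interval of Notch1 spans 0. The dotted line is the median of all tested genes at -0.24.

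Among the ligands, Jag1 rose, Dll1 was lower in every BMP9 library at a few reads, and Dll4 overlapped between the groups. Jag1 (ENSMUSG00000027276, chromosome 2, 137081456 to 137116644, minus strand), the Jagged ligand of endothelium, smooth muscle and macrophages, was at 67.4, 69.8 and 70.9 RPM with BMP9 overexpression, against 29.9, 26.5 and 44 RPM in Control. The BMP9 libraries lay close together, and all were above the highest Control library. The means were 69.4 ± 1.83 RPM with BMP9 overexpression and 33.5 ± 9.29 RPM in Control (SD, n = 3 each), which gave a log2 fold change of 1.06 (SE 0.29, limma adjusted p = 0.011). The call was lost without Control replicate 1 (1.0, limma adjusted p = 0.054), within the earlier stamp (1.02, limma adjusted p = 0.078) and with the stamp as a covariate (1.02, limma adjusted p = 0.052). Per 1000 RPM of the macrophage marker sum, Jag1 was at 2.93, 3.59 and 2.7 RPM with BMP9 overexpression and at 4.09, 5.26 and 5.71 RPM in Control, so on that base all BMP9 libraries were the lower. Scaled to 1000 RPM of the pan-endothelial marker sum it was at 571, 567 and 523 RPM with BMP9 overexpression and at 394, 188 and 406 RPM in Control, all BMP9 libraries being the higher.

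Dll1 (ENSMUSG00000014773, chromosome 17, 15367354 to 15376872, minus strand), a Delta ligand that stroma presents to lymphocytes, was at 0.506, 0.68 and 1.2 RPM with BMP9 overexpression, from 1, 3 and 34 reads. In Control it was at 3.93, 3.03 and 5 RPM, from 18, 4 and 10 reads. The groups did not overlap. A level of 3 reads corresponds to 1.519, 0.68 and 0.106 RPM in BMP9 replicates 4, 5 and 6, so replicates 4 and 5 were at or under that floor and replicate 6 was above it. Floors cover counting error only, since reads are PCR copies without molecular identifiers. Means of log2(RPM + 1) differed by -1.47, for which the exact permutation test (two-sided) gave p = 0.1, again its lowest possible value. In the limma fit without a filter its adjusted p was 0.028.

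Dll4 (ENSMUSG00000027314, chromosome 2, 119325784 to 119335962, plus strand), the tip cell ligand, was at 6.08, 2.04 and 4.05 RPM with BMP9 overexpression, against 3.71, 5.3 and 3.5 RPM in Control. These levels came from 12, 9 and 115 reads with BMP9 overexpression and from 17, 7 and 7 reads in Control. Means of log2(RPM + 1) differed by -0.10, for which the exact permutation test (two-sided) gave p = 1, and a change was not detectable at this depth. Dll4 overlaps an annotated transcript on the opposite strand, Gm14207. Per 1000 RPM of the macrophage marker sum, Dll4 was at 0.264, 0.105 and 0.154 RPM with BMP9 overexpression. In Control it was at 0.507, 1.05 and 0.454 RPM on that base, so all BMP9 libraries were the lower. On the pan-endothelial base the ranges overlapped. The ratio of Jag1 to Dll1 within a library was 133, 103 and 59.2 with BMP9 overexpression, against 7.61, 8.75 and 8.8 in Control. The size of such a ratio depends on the yield of each amplicon, so only its difference between libraries can be read, and its high values rest on the few Dll1 reads given above. The ratio of Jag1 to Dll4 was 11.1, 34.2 and 17.5 with BMP9 overexpression and 8.06, 5 and 12.6 in Control, and these ranges overlapped.

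Lfng (ENSMUSG00000029570, chromosome 5, 140607320 to 140615545, plus strand), the fringe enzyme whose promoter is printed above, fell. It was at 322, 273 and 343 RPM with BMP9 overexpression, against 546, 545 and 596 RPM in Control. Every BMP9 library lay below every Control library, and the spread within each group was small. The means were 313 ± 36.1 RPM with BMP9 overexpression and 562 ± 29.3 RPM in Control (SD, n = 3 each), which gave a log2 fold change of -0.85 (SE 0.25, limma adjusted p = 0.016). The call depended on the scaling, with -0.62 under TMM (limma adjusted p = 0.07) and -0.59 in edgeR (adjusted p = 0.092). Quantile normalization kept it at -0.86 (limma adjusted p = 0.013), and DESeq2 called it at -0.61 (adjusted p = 0.049). It was also lost without Control replicate 1 (-0.87), Control replicate 3 (-0.81) or BMP9 replicate 5 (-0.76), within the earlier stamp and with the stamp as a covariate (-0.80 in both). T and NK cell markers fell in the same libraries with a median log2 fold change of -2.85, and their part in the result was not tested. Per 1000 RPM of their sum, Lfng was at 280, 256 and 521 RPM with BMP9 overexpression and at 96.1, 95 and 110 RPM in Control. On that base all BMP9 libraries were the higher, but the other bases kept all of them lower. Lfng was at 2730, 2215 and 2530 RPM with BMP9 overexpression and at 7190, 3871 and 5493 RPM in Control on the pan-endothelial base, and at 14, 14 and 13 RPM with BMP9 overexpression and 74.7, 108 and 77.3 RPM in Control on the macrophage base.

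The target genes Hes1 and Nrarp moved in opposite directions. Hes1 (ENSMUSG00000022528, chromosome 16, 30064384 to 30067796, plus strand), a repressor of the basic helix-loop-helix family that other signals also induce, was at 16.7, 20.6 and 22.4 RPM with BMP9 overexpression, from 33, 91 and 636 reads. In Control it was at 5.89, 3.03 and 6 RPM, from 27, 4 and 12 reads. The lowest BMP9 library was above the highest Control library by more than the spread of either group. The log2 fold change was 1.84 (SE 0.36, limma adjusted p = 0.0012), 1.61 within the earlier stamp and 1.33 with a pseudocount of 5. Scaled to 1000 RPM of the macrophage marker sum, Hes1 was at 0.727, 1.06 and 0.852 RPM with BMP9 overexpression and at 0.806, 0.601 and 0.778 RPM in Control, ranges that overlapped. On the pan-endothelial base it was at 142, 168 and 165 RPM with BMP9 overexpression and at 77.6, 21.5 and 55.3 RPM in Control, all BMP9 libraries being the higher. The list of immediate-early and heat shock genes, transcripts that tissue dissociation can induce, also summed to more in these libraries, 5649 to 7731 RPM with BMP9 overexpression and 4245 to 5411 RPM in Control. The part of these markers in the result was not tested.

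Nrarp (ENSMUSG00000078202, chromosome 2, 25180758 to 25183339, plus strand), the ankyrin-repeat feedback inhibitor whose promoter is printed above, was at 20.8, 13.6 and 5.14 RPM with BMP9 overexpression, against 50.2, 43.1 and 64 RPM in Control. All BMP9 libraries lay below all Control libraries, with replicate 6, the most deeply read library, lowest. The means were 13.2 ± 7.82 RPM with BMP9 overexpression and 52.4 ± 10.6 RPM in Control (SD, n = 3 each), which gave a log2 fold change of -2.08 (SE 0.41, limma adjusted p = 0.0013). Within the earlier stamp it was -1.28 (limma adjusted p = 0.028), and with the stamp as a covariate the call was lost (limma adjusted p = 0.051). Per 1000 RPM of the T and NK cell marker sum, Nrarp was at 18, 12.8 and 7.81 RPM with BMP9 overexpression and at 8.83, 7.52 and 11.9 RPM in Control, ranges that overlapped. On the pan-endothelial base it was at 176, 111 and 37.9 RPM with BMP9 overexpression and at 661, 306 and 590 RPM in Control. On the macrophage base it was at 0.903, 0.699 and 0.196 RPM with BMP9 overexpression and at 6.87, 8.57 and 8.3 RPM in Control, and on both of these all BMP9 libraries were the lower. Nrarp overlaps an annotated antisense gene, Gm38287. Dll1 and Notch4 also overlap annotated genes on the opposite strand, A930024N18Rik and Gm20462.

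The genes whose centred log2(RPM + 1) profile over the 6 libraries was closest to that of Hes1 were Tmtc3, Dab2 and Zak, with root mean square differences of 0.10, 0.10 and 0.11. Tmtc3, the closest, was at a mean of 33.7 RPM with BMP9 overexpression and 9.12 RPM in Control, and Zak at 67.2 and 17.3 RPM. Dab2, an endocytic adaptor expressed by many macrophages, was at a mean of 2857 RPM with BMP9 overexpression and 786 RPM in Control. The closest to Nrarp were Emid1, Acap1 and Klrb1c, with differences of 0.14, 0.21 and 0.22. Emid1, the closest, was at a mean of 16.7 RPM with BMP9 overexpression and 78.3 RPM in Control, and Acap1 at 70.4 and 231 RPM. Klrb1c, the NK1.1 receptor of NK cells and one of the T and NK cell markers, was at a mean of 119 RPM with BMP9 overexpression and 360 RPM in Control. These are the nearest of 9460 tested genes by that measure over 6 libraries, a choice that also fixes the direction in which they differ between the groups.

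The rest of the pathway was described from a list of 62 other genes, of which 58 had a row and 43 were tested. Of these 43, 5 rose and 7 fell, which is 27.9% beside 35.2% of all tested genes. The counts include Aph1c, which rose, and Kat2a, which fell, and each passed the filter through the group in which it was the higher. Their median log2 fold change was 0.09, against -0.24 over all tested genes. Among other receptors and ligands only Jag2, a Jagged ligand, passed the filter, at 14.7, 15.6 and 12.5 RPM with BMP9 overexpression and 12.9, 2.27 and 9.5 RPM in Control, and it was not called (0.96, SE 0.47, limma adjusted p = 0.12). Notch3, the receptor of pericytes and smooth muscle, was at 1.13 to 3.04 RPM with BMP9 overexpression and at 0 to 2.5 RPM in Control. Hey1, Hey2 and Heyl, the hairy-related targets through which Notch acts in endothelium, were at 0 to 1.52 RPM with BMP9 overexpression and at 0 to 0.757 RPM in Control.

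Of 9 tested genes of proteolytic processing, 3 rose and none fell. These 33.3% stand beside 12.7% of all tested genes called higher and 35.2% called in either direction. Ncstn, the substrate-receiving gamma-secretase subunit nicastrin, was at 249, 377 and 208 RPM with BMP9 overexpression and at 115, 93.1 and 156 RPM in Control (log2 fold change 1.18, SE 0.30, limma adjusted p = 0.0066). Aph1c rose by 1.63 (SE 0.41) to a mean of 11.6 RPM with BMP9 overexpression, against 2.84 RPM in Control, but it has a near-identical copy, Aph1b, so which gene gave its reads is uncertain. No Control library reached 5 RPM of Aph1c, so it passed the filter through the BMP9 libraries alone. Without a filter on low values the Aph1c call was lost (limma adjusted p = 0.063), and within the earlier stamp its fold change was 2.38. Adam10, the sheddase that makes the first cut, was at 253, 282 and 368 RPM with BMP9 overexpression and at 281, 291 and 254 RPM in Control, and was not called (limma adjusted p = 0.76). Gamma-secretase cuts many proteins beside Notch. Markers of macrophages rose in the same libraries, and their part in these changes was not tested.

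Of 3 tested glycosylation genes, 1 rose, which is 33.3% beside 12.7% of all tested genes called higher and 35.2% called in either direction. Poglut1, which glucosylates the epidermal growth factor repeats of Notch, was at 71.4, 82.8 and 92.4 RPM with BMP9 overexpression and at 22.5, 20.4 and 15.5 RPM in Control, a log2 fold change of 2.03 (SE 0.29, limma adjusted p = 0.0001). Mfng, another fringe enzyme, was at 32.4, 9.07 and 14.4 RPM with BMP9 overexpression and at 33.6, 34.8 and 24 RPM in Control (-0.86, limma adjusted p = 0.11). Its fold change turned to 0.09 within the earlier stamp and was called without BMP9 replicate 4 (-1.33, limma adjusted p = 0.0062). Pofut1, the O-fucosyltransferase that primes fringe action, was not called (-0.45, limma adjusted p = 0.36), and was at 0.13 within the earlier stamp.

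Of 9 tested genes of endocytosis and turnover, 1 fell, which is 11.1% beside 22.5% of all tested genes called lower and 35.2% called in either direction. Dtx3l, a ubiquitin ligase of the Deltex family, was at 20.3, 36.3 and 19.9 RPM with BMP9 overexpression and at 47.3, 56 and 48.5 RPM in Control (log2 fold change -1.01, limma adjusted p = 0.021). Its call was lost without a filter (limma adjusted p = 0.059), with TMM (-0.79), quantile normalization (-0.78), edgeR (-0.73) and DESeq2 (-0.74), without Control replicate 1 (-1.06), 2 (-0.94) or 3 (-1.04) and without BMP9 replicate 6 (-0.87). Mib1, the ligase that lets ligands be pulled into the sending cell, was not called (0.45, limma adjusted p = 0.21), nor was Fbxw7, which marks the intracellular receptor for destruction (-0.40, limma adjusted p = 0.43), at 0.18 within the earlier stamp.

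Of 15 tested nuclear cofactors, 1 rose and 2 fell, which is 20% beside 35.2% of all tested genes called. Maml2, a Mastermind coactivator, was at 5.57, 6.58 and 8.84 RPM with BMP9 overexpression and at 16.4, 19.7 and 21 RPM in Control (log2 fold change -1.34, SE 0.34, limma adjusted p = 0.0069). Maml1, which serves the same step, was at 0.57 (limma adjusted p = 0.17). The histone acetyltransferase gene Kat2a fell by 1.78 on the log2 scale (limma adjusted p = 0.023), with no read in BMP9 replicate 4. It reached 5 RPM in 1 BMP9 library and passed the filter through Control, and within the earlier stamp it was at -3.43. Its call was lost without a filter (limma adjusted p = 0.18), with quantile normalization (-1.40), edgeR (-1.24) and DESeq2 (-1.31), without that replicate (-0.96) and without Control replicate 1 (-1.67) or 2 (-1.73).

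Of 6 other tested target genes, 4 fell and none rose, which is 66.7% beside 22.5% of all tested genes called lower and 35.2% called in either direction. Myc, a growth regulator that Notch induces in T cell leukaemia, was at 88.1, 87.3 and 98.7 RPM with BMP9 overexpression and at 378, 301 and 208 RPM in Control (log2 fold change -1.64, SE 0.28, limma adjusted p = 0.0004). Gata3, a T helper cell factor, fell by 1.73 (SE 0.34), and Il2ra, the interleukin 2 receptor alpha chain, by 1.37 (SE 0.27). Within the earlier stamp these were -1.15 for Gata3 and -0.90 for Il2ra, and the Il2ra call was lost there (limma adjusted p = 0.052). Ccnd1, cyclin D1, was the other that fell (-1.12, limma adjusted p = 0.027). T and NK cell and proliferation markers fell in the same libraries, by medians of -2.85 and -2.88, and the part of these markers was not tested.

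**Figure D4:**
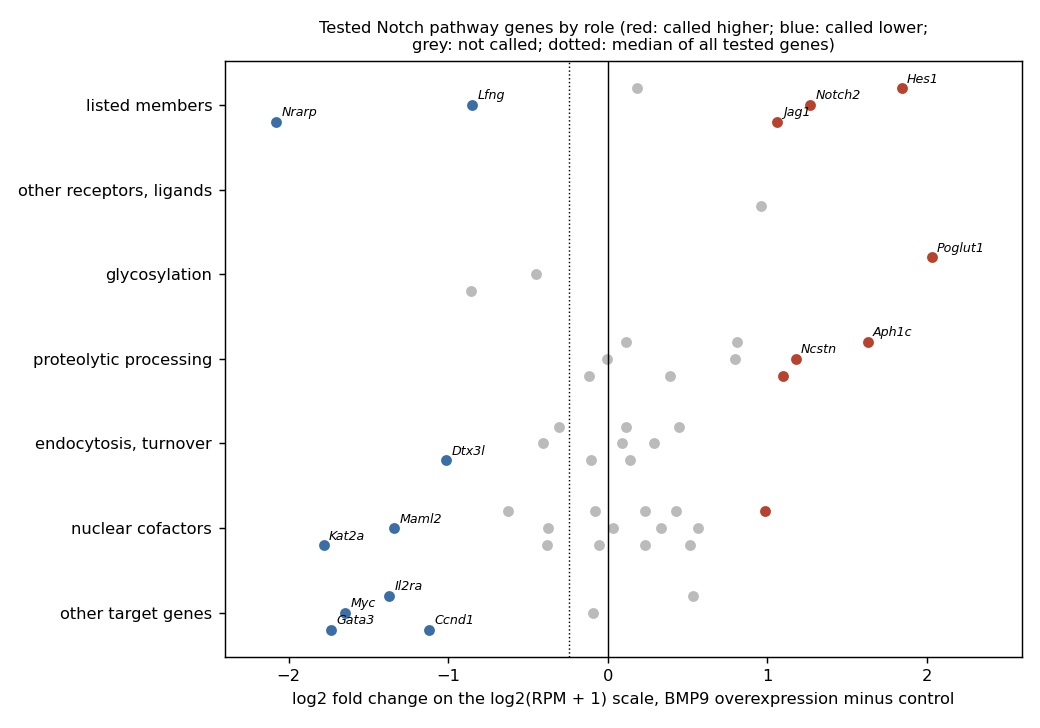
log2 fold change on the log2(RPM + 1) scale, BMP9 overexpression minus Control (horizontal axis), of each tested Notch pathway gene, grouped by role from top to bottom, with the called genes that the text describes named. The 3 called processing genes lie to the right, 33.3% of those tested beside 12.7% of all tested genes called higher and 35.2% called in either direction. They include Aph1c, which passed the filter through the BMP9 libraries alone. The 4 called other target genes lie to the left, and, apart from the listed members, no other role group has more than 3 called genes.

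**Figure D5:**
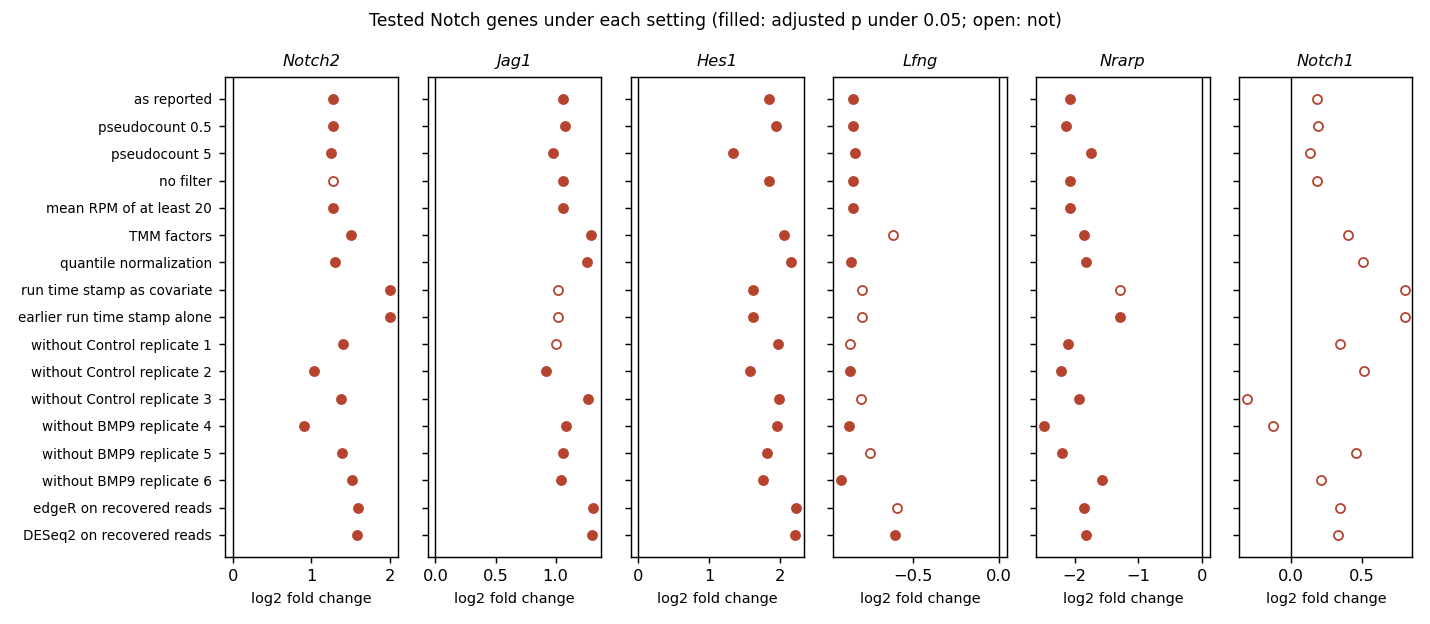
log2 fold change of the 6 tested Notch genes (horizontal axes) under the reported fit and each alternative setting (rows), with filled points where the adjusted p was under 0.05. Hes1 was called in every setting in which it was fitted, Notch2 in all but the fit without a filter, Lfng lost its call in 7 of 16 alternatives, and Notch1 changed sign in 2 of 15.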

How the data were processed

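RNA of CD31-positive cells was read with an Ion AmpliSeq mouse transcriptome panel on Ion Torrent, per the labels' protocols, with mm10 as the genome build per the submitters' processing notes. No source used here names the aligner or the counting tool. As deposited by the authors, values are RPM, each library summing to the same total. Within a library every value was a whole multiple of 1 read, and whole reads were recovered for 100% of nonzero values within 0.05 reads.

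The members and gene lists were chosen with earlier results of these data known. All 6 libraries entered 1 comparison. limma-trend (limma 3.58.1, R 4.3.3) was fitted on log2(RPM + 1) where 3 or more libraries reached 5 RPM. The p-values were adjusted by Benjamini and Hochberg's method over all 9460 genes (threshold 0.05). The procedure was also run on simulated reads in which as many genes were set to rise as to fall. That run does not cover a shift of the median such as the one seen here. Fold changes were taken between group means of log2(RPM + 1), a scale that shrinks those of low genes. Members below the filter had an exact permutation test. Named genes were the 10 members, Pecam1, up to 3 tested genes with the smallest p of each pathway list (2 of these genes are not reported here), and the 3 genes nearest in profile to the member with the largest increase and to that with the largest decrease. Ccnd1, Flt1, Kdr, Eng, Notch3, Hey1, Hey2, Heyl, Adam10 and Maml1, the other marker genes named, the ratios and the promoters shown were chosen after values were seen. Alternatives on the recovered reads were DESeq2 1.42.0, which called 1771 genes higher and 1546 lower, and the quasi-likelihood test of edgeR 4.0.16, which called 1693 higher and 1421 lower. Gene coordinates are those of GENCODE M21 and promoters those of RefSeq, both GRCm38.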

Additional observations from a re-analysis of the deposited data

How the results depend on the processing

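Counts of members called were 3 higher and 2 lower. The 2 lower became 1 with TMM factors, within the earlier run time stamp and in edgeR, and 0 with the stamp as a covariate, but 3 without a filter. The 3 higher became 2 without a filter, with the mean filter of 20 RPM, within the earlier stamp and with the stamp as a covariate. Leaving out 1 library gave 2 to 3 members higher and 1 to 2 lower. Over all tested genes, leaving out 1 library gave 813 to 1124 genes higher and 1093 to 2308 lower, with 1093 lower without Control replicate 1 and 1394 without Control replicate 3. For the other pathway genes, 5 higher and 7 lower, the number higher was 3 without a filter, 3 again when only genes averaging 20 RPM or more were kept, 8 after quantile normalization and in edgeR, and 9 in DESeq2, and the number lower was 4 without a filter, after quantile normalization, in edgeR and in DESeq2. Leaving out 1 library gave 4 to 5 higher and 4 to 7 lower, with 4 lower without Control replicate 1 or 2. A mean filter of 20 RPM tests fewer genes, and the cause of the other shifts was not tested. Signs turned for Notch1 without Control replicate 3 and without BMP9 replicate 4 (-0.31 to 0.52 over the libraries left out, and -0.13 without BMP9 replicate 4), and for Mfng (0.089), Pofut1 (0.13) and Fbxw7 (0.18), both within the earlier stamp and with it as a covariate. No paired analysis was possible because the groups share no replicate number. Depth limits Dll1, Dll4 and Notch4, with 4 to 18 reads in each Control library.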
